A study of Homo sapiens with 4 samples.

Results

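The KMT2 and SETD1 genes and 3 related genes encode large SET-domain proteins, most of which methylate histone H3. The mRNAs of these genes were followed in RNA recovered with the protein P5CS. The set was a list of 10 gene symbols (KMT2A, KMT2B, KMT2C, KMT2D, KMT2E, SETD1A, SETD1B, ASH1L, NSD1 and SETD2), and all 10 were found among the 21372 genes of the count table. The list was drawn up with P5CS IP and input values of these same libraries in view, so the members' differences between IP and input are given as a description, with no test. The study was an RNA immunoprecipitation sequencing (RIP-seq) experiment in NCI-H1299, an established human lung cancer cell line that the labels call lung adenocarcinoma. It compared 2 libraries of RNA pulled down with P5CS, the proline-making enzyme of mitochondria that ALDH18A1 encodes, with 2 input libraries from the same line. The series' design text instead names LACE-seq, a method that maps protein binding sites on RNA, with an IgG control, while the library protocol and titles give RIP-seq and input and were followed here. The table's headers carry the word Cyto in both groups, and none of the sources used here says whether they were made from a cytoplasmic fraction. No drug, knockout or other treatment is named for either group. No mock or IgG pulldown was analysed here, so a higher level means only a higher level in the IP RNA than in the input RNA after the libraries were scaled. In these bulk libraries, the number of cells with a transcript and the amount of RNA per cell could not be told apart.

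Methylation of histone H3 at lysine 4 marks promoters and enhancers that are in use, and methylation at lysine 36 marks the bodies of transcribed genes. KMT2A to KMT2D and SETD1A and SETD1B write the lysine 4 mark as the catalytic subunits of complexes that share a small core of WDR5, RBBP5, ASH2L and DPY30. ASH1L, NSD1 and SETD2 write the lysine 36 mark, and KMT2E, which carries a divergent SET domain, is better known for reading the lysine 4 mark. KMT2E is counted below with the methyltransferase genes by its family name. Many of these genes are recurrently mutated in human cancers, those of the lung included.

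The libraries held 34730866 and 31489455 counts in the P5CS IP, against 40911717 and 46339235 in the input. The keratin genes KRT8 and KRT18 and the vimentin gene VIM were abundant in every library. In contrast, EPCAM reached at most 8 counts and the lung lineage factor NKX2-1 at most 52 counts in a library. CDH1, SFTPB, SFTPC and NAPSA were looked up and were not among the genes of the count table. Blood and immune markers reached at most 8 counts and endothelial markers at most 84. The 13 mitochondrially encoded mRNAs took 0.424 and 0.322% of the IP counts against 4.389 and 4.013% of the input counts, and the part of this shift in RNA composition in the members' values was not tested. The labels do not say whether replicate libraries were grown as separate cultures. The p-values below therefore measure the spread between libraries alone, and that spread may be technical.

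Promoter windows were available from RefSeq (GRCh38.p14) for 9 of the 10 genes, all but SETD1B. Those of ASH1L and SETD2 lie inside the gene spans given with their values, and the others end at the span's start. Windows are shown for KMT2C and KMT2D because both of these close paralogues were over 2-fold higher in the IP while their promoters differed in base composition. Each is the 250 bases before the annotated start, written along the gene's own strand, with GC boxes (GGGCGG or its complement CCGCCC) in capitals. The KMT2C window lies at chr7:152436004-152436253 and the KMT2D window at chr12:49060795-49061044, both on the minus strand.
KMT2C: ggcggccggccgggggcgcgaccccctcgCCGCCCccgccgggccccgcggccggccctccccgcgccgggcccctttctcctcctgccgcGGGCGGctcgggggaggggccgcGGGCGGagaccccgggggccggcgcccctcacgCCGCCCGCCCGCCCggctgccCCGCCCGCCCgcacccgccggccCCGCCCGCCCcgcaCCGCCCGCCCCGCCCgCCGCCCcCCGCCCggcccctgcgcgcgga
KMT2D: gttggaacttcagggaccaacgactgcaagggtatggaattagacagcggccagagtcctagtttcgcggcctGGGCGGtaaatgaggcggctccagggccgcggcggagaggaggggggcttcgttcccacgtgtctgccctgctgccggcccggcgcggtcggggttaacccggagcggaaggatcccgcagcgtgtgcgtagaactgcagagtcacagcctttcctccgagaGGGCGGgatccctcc
The KMT2C window held 15 GC boxes, overlapping matches counted one by one, and was 92.0% G or C. The KMT2D window held 2 and was 65.6% G or C. A GC box was present on either strand in all 9 windows (3 in KMT2A, 4 in KMT2B and SETD1A, and 1 each in KMT2E, ASH1L, NSD1 and SETD2), against 42.3% of 27305 promoter windows of the same length. The motif CCAAT (or ATTGG), found in 33.0% of all windows, was in 0 of the 9, as were TATAAA (11.1% of all windows) and CCGGAAG (8.82%), each searched on both strands. The G and C content ran from 54.4% in NSD1 to 92.0% in KMT2C, with a median of 58.0% over all windows. These are matches of letters and say nothing of binding, and the libraries measured RNA rather than promoters.

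All 10 mRNAs made up a larger share of the P5CS IP than of the input. Together they took 0.455 and 0.464% of the IP counts, against 0.145 and 0.145% of the input counts. Their summed level was 4126 and 4254 CPM in the IP libraries, against 1577 and 1600 CPM in the input libraries (CPM, counts scaled to a common library size after trimmed mean of M-values, TMM). In each of the 10 genes both IP libraries lay above both inputs, which was also the case for 37.7% of the 17304 genes tested. A gene was called where the quasi-likelihood test of edgeR gave an adjusted p under 0.05 (Benjamini-Hochberg), which held for 51.0% of all tested genes in either direction. All 10 were on the higher side of this call, as were 25.4% of all tested genes, and 7 of them were at least 2-fold higher, as were 15.0% of all tested genes. Since the list was chosen on this contrast, these counts only describe it. The median log2 fold change of IP over input was 1.35 for the 10 genes and -0.01 for all genes tested. In the authors' deposited table all 10 carry the mark of enrichment, which 19.0% of its genes carry, with log2 fold changes between 0.69 and 2.08.

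**Figure D1:**
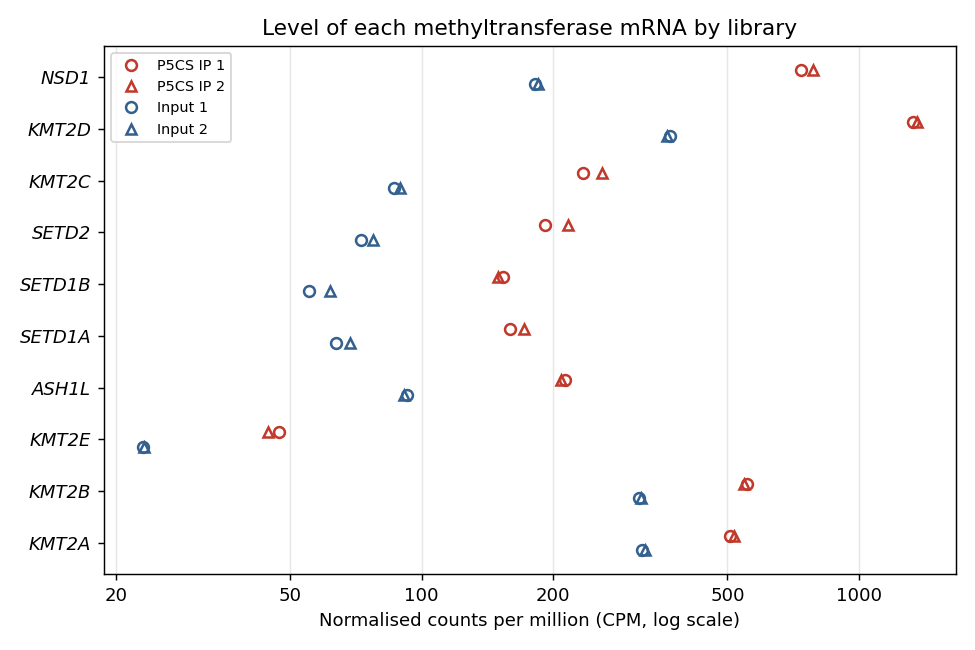
Level of each of the 10 mRNAs in CPM (log axis) in P5CS IP 1 and 2 (red) and input 1 and 2 (blue), with genes ordered from the highest fold change at the top. Every red pair lies to the right of its blue pair, with the widest gap for NSD1 (736.5 and 784.2 CPM in the IP, against 181.1 and 184.2 CPM in the input) and the narrowest for KMT2A.

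KMT2A and KMT2B, the paralogues that work with the menin protein and keep developmental genes such as the HOX clusters active, had the smallest differences. KMT2A (chromosome 11, 118436492 to 118526832, GRCh38.p14) stood at 505.7 and 518.6 CPM in the P5CS IP, against 318.3 and 324.6 CPM in the input. KMT2B (chromosome 19, 35718003 to 35738878) stood at 553.6 and 546.6 CPM in the IP, against 314.7 and 317.1 CPM in the input. Both genes thus had closely matched libraries within each group, with no overlap between the groups. The log2 fold change was 0.67 (SE 0.0722) for KMT2A, a 1.59-fold difference, and 0.80 (SE 0.0716) for KMT2B, a 1.74-fold difference.

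KMT2C and KMT2D, which place the single methyl group on lysine 4 at enhancers, had larger differences than that pair. KMT2D (chromosome 12, 49018978 to 49060794) stood at 1332 and 1356 CPM in the P5CS IP, against 369.0 and 363.2 CPM in the input. KMT2C (chromosome 7, 152134925 to 152436003) stood at 234.1 and 258.1 CPM in the IP, against 86.4 and 89.0 CPM in the input. The log2 fold change was 1.88 (SE 0.0701) for KMT2D, 3.67-fold, and 1.49 (SE 0.0866) for KMT2C, 2.80-fold. The 4 ratios of an IP library to an input library ran from 3.61 to 3.73 for KMT2D and from 2.63 to 2.99 for KMT2C, so the paralogues did not overlap. Parts of KMT2C have near-identical copies elsewhere in the human genome, and none of the sources used here says how reads matching several places were counted, so its value is uncertain to an extent that was not tested.

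SETD1A and SETD1B, which lay down most of the trimethyl mark at active promoters, could not be separated from each other. SETD1A (chromosome 16, 30957754 to 30984664) stood at 159.1 and 171.0 CPM in the P5CS IP, against 63.6 and 68.4 CPM in the input. SETD1B (chromosome 12, 121790155 to 121832656) stood at 153.5 and 149.4 CPM in the IP, against 55.2 and 61.8 CPM in the input. Both genes sat well apart between groups. Their log2 fold changes were 1.32 (SE 0.0908) and 1.37 (SE 0.0940), and the IP over input ratios of single libraries overlapped (2.33 to 2.69 for SETD1A, 2.42 to 2.78 for SETD1B). The span of SETD1B overlaps that of RHOF, which had 622 and 482 counts in the IP and 523 and 658 in the input, against 5876 and 5134 IP counts and 2077 and 2592 input counts for SETD1B. The sources used here do not state whether counting used strand, so reads in the overlap may belong to either gene.

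KMT2E had the fewest counts of the 10 in every library and, per length, the lowest level. It stood at 47.1 and 44.4 CPM in the P5CS IP (chromosome 7, 105014205 to 105115019), against 23.0 and 23.2 CPM in the input, a log2 fold change of 0.98 (SE 0.118) or 1.98-fold. Even so the 95% counting intervals of single libraries, taken on read pairs, were apart, the lowest IP bound being 41.3 CPM and the highest input bound 25.4 CPM. These intervals cover counting error only. SRPK2, whose span overlaps that of KMT2E, had 1083 and 950 counts in the IP and 1188 and 1364 in the input, of the same order as the 1803 and 1524 IP counts and the 867 and 974 input counts of KMT2E.

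The lysine 36 enzymes held the highest fold change of the set. NSD1, which places the dimethyl mark, stood at 736.5 and 784.2 CPM in the P5CS IP (chromosome 5, 177131798 to 177300213), against 181.1 and 184.2 CPM in the input, a log2 fold change of 2.06 (SE 0.0764) or 4.16-fold. SETD2, which follows elongating RNA polymerase II and adds the trimethyl mark, stood at 191.7 and 216.4 CPM in the IP (chromosome 3, 47016436 to 47164840), against 72.8 and 77.2 CPM in the input, a log2 fold change of 1.44 (SE 0.0928). ASH1L, the human counterpart of the fly trithorax-group gene ash1, stood at 212.9 and 208.7 CPM in the IP (chromosome 1, 155335268 to 155563202), against 92.4 and 91.1 CPM in the input, a log2 fold change of 1.20 (SE 0.0807). In none of these genes did the groups overlap. KIF9-AS1, a non-coding gene whose span overlaps that of SETD2, had 560 and 463 counts in the IP and 129 and 188 in the input, against 7337 and 7435 IP counts and 2738 and 3235 input counts for SETD2.

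By fold change the 10 genes fell in the order NSD1, KMT2D, KMT2C, SETD2, SETD1B, SETD1A, ASH1L, KMT2E, KMT2B and KMT2A. The ratios of single IP to single input libraries overlapped between neighbours from KMT2C through SETD2, SETD1B and SETD1A to ASH1L, so the order of neighbours within that stretch was not resolved. The ratios of ASH1L (2.26 to 2.34) did lie below those of KMT2C, SETD2 and SETD1B. NSD1 (4.0 to 4.33) and KMT2D (3.61 to 3.73) stood above it, and KMT2E (1.91 to 2.04), KMT2B (1.72 to 1.76) and KMT2A (1.56 to 1.63) below it, each without overlap with its neighbours.

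Levels between genes were compared per kilobase of gene model, the exon length recovered from the deposited counts and FPKM. In the P5CS IP, KMT2D and KMT2B were level at the top, with 64.9 ± 0.844 and 64.6 ± 0.586 CPM per kilobase (SD, n = 2), followed by NSD1 at 53.6 ± 2.38. In the input KMT2B stood alone at 37.1 ± 0.204 CPM per kilobase (SD, n = 2), ahead of KMT2D at 17.7 ± 0.20, KMT2A at 16.6 ± 0.231 and NSD1 at 12.9 ± 0.156. KMT2D and NSD1 therefore came closer to KMT2B, or drew level with it, in the IP, while KMT2A ranked below NSD1 there. KMT2C (10.6 ± 0.731 in the IP, 3.78 ± 0.0787 in the input) and KMT2E (5.26 ± 0.223 in the IP, 2.66 ± 0.0153 in the input) had the lowest levels per kilobase in both groups. Besides KMT2D and KMT2B, the libraries overlapped between neighbours only for SETD1A and SETD2 in the IP (25 ± 1.27 and 23.9 ± 2.05), while the lowest IP library of SETD1B and the highest of ASH1L both came to 17.5 after rounding. In the input no neighbours overlapped.

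**Figure D2:**
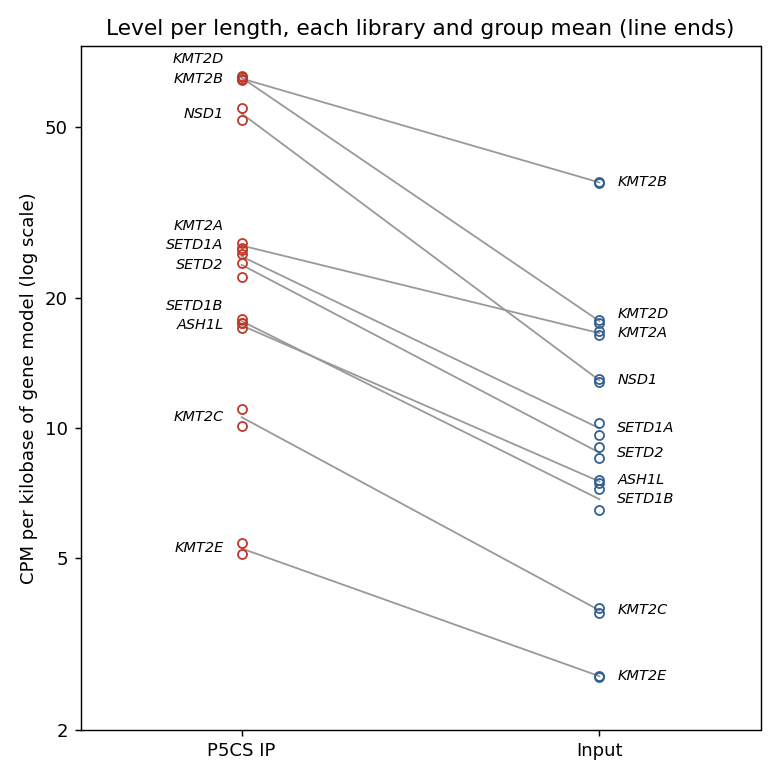
Level of each gene in CPM per kilobase of gene model (log axis) in the P5CS IP (left, red) and the input (right, blue). Circles are single libraries and each grey line joins the means of a gene, which ran between 64.9 (KMT2D) and 5.26 (KMT2E) on the IP side and between 37.1 (KMT2B) and 2.66 (KMT2E) on the input side.

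The 10 genes share long gene models, and long genes as a whole were more often higher in the P5CS IP. Their models ran from 6.61 kb (SETD1A) to 23.21 kb (KMT2C), with a median of 10.45 kb against 3.42 kb for all genes tested. Among the 3043 tested genes with models at least as long as that of SETD1A, 43.2% were higher in the IP, against 25.4% of all genes. The median log2 fold change over all tested genes was -0.82 for models under 1 kb, 0.41 from 8 to 12 kb, 0.67 from 12 to 16 kb and 0.50 from 16 kb upward. Across all genes tested the Spearman correlation of length with log2 fold change was 0.27. Across the 10 genes it was 0.36, a description over 10 genes counted in the same 4 libraries. The models are sums of annotated exons and need not be the transcripts of this cell line.

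Set beside genes of their own length class, the 10 genes spread widely. KMT2A, with a model of 19.35 kb, was near the middle of the 197 tested genes of 16 kb or more, of which 86 had a higher log2 fold change. In the same class 17 genes exceeded KMT2D and 33 exceeded KMT2C. Of the 354 genes from 12 to 16 kb, 24 exceeded NSD1 and 98 exceeded ASH1L. Among the 1363 genes from 8 to 12 kb, 189 exceeded SETD2, 219 SETD1B, 378 KMT2E and 473 KMT2B, and of the 1865 genes from 6 to 8 kb, 280 exceeded SETD1A. With the length trend of each library removed in the edgeR fit, the log2 fold changes ran from 0.07 (SE 0.0727) for KMT2A to 1.5 (SE 0.0717) for NSD1 and the median was 0.92.

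**Figure D3:**
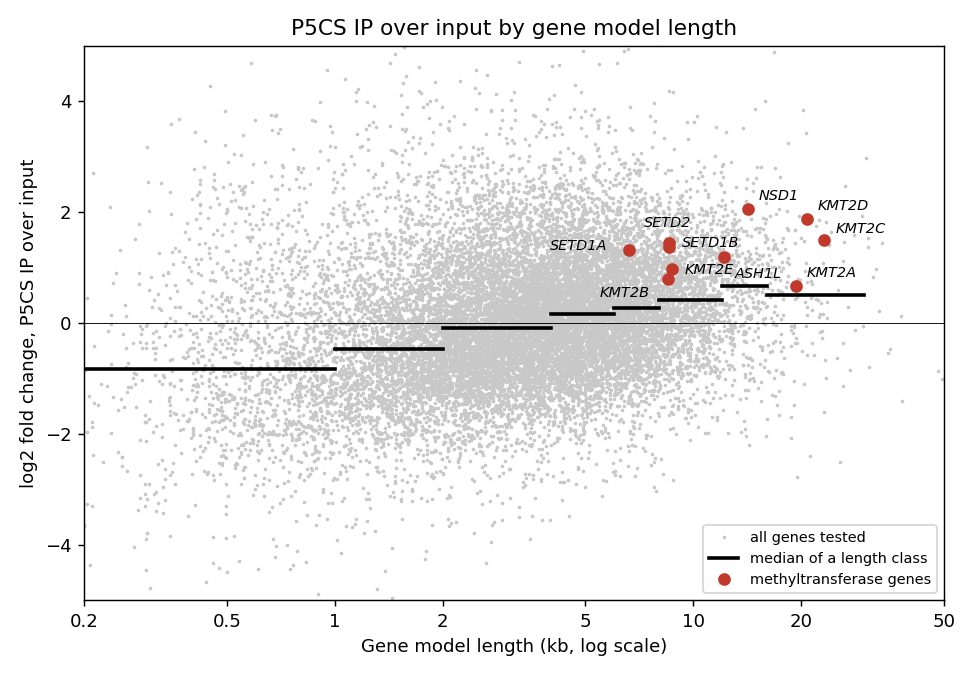
Log2 fold change of P5CS IP over input against gene model length (kb, log axis) for all genes tested (grey), with the 10 methyltransferase genes in red and black bars at the median of each length class (the last bar stands for all genes of 16 kb or more). Of the 17304 genes, 387 fall outside the axes. KMT2A lies close to the bar of its class, and NSD1 and KMT2D lie 1.39 and 1.38 above theirs.

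The subunits that work with these enzymes did not share one direction. This list, like those of other SET-domain genes and demethylases below, was drawn up with earlier results of these data known. Counts and p-values of the lists therefore describe them and are no independent test. All 15 listed subunits of the KMT2 and SETD1 complexes were tested, and by the same edgeR test 5 passed as higher, 5 passed as lower and 5 were not called, against 25.4% higher and 25.6% lower among all genes. Their median log2 fold change was -0.07 and their median model length 3.88 kb. Without P5CS IP 1, and likewise without input 2, only 6 were called, 3 in each direction.

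Of the 4 core subunits shared by the complexes, 3 were called lower and 0 higher in the P5CS IP, against 25.6% lower and 25.4% higher among all genes. Of these 3 calls, only that of DPY30 held in every alternative setting. DPY30, the small subunit that binds ASH2L, stood at 2.30 and 2.45 CPM in the IP, against 8.51 and 8.85 CPM in the input, and fell by 1.87 on the log2 scale (SE 0.262, adjusted p = 0.000126, edgeR). WDR5, the scaffold that grips the catalytic subunit, stood at 44.6 and 48.5 CPM in the IP, against 61.5 and 58.7 CPM in the input (log2 fold change -0.37, SE 0.103, adjusted p = 0.0116, edgeR). ASH2L stood at 17.6 and 16.8 CPM in the IP, against 22.0 and 24.3 CPM in the input (-0.43, SE 0.147, adjusted p = 0.0309, edgeR). In these 3 genes both IP libraries lay below both inputs. DPY30 has a model of 0.83 kb, and the median over all tested genes under 1 kb was -0.82. With the length trend removed DPY30 was at -1.43, WDR5 at -0.43 and ASH2L at -0.51. The calls of WDR5 and ASH2L were fragile. That of WDR5 ended without P5CS IP 1 (-0.30, adjusted p = 0.0516, edgeR) and without input 1 (-0.34, 0.0747), and that of ASH2L without P5CS IP 1 (-0.46, 0.0565), without P5CS IP 2 (-0.36, 0.137) and without input 2 (-0.35, 0.177). Both also ended with total-count scaling (-0.10 for WDR5 and -0.16 for ASH2L), and that of ASH2L with DESeq2 (-0.41, adjusted p = 0.0801). RBBP5, with 7.37 and 7.02 CPM in the IP, against 7.98 and 7.23 CPM in the input, did not pass (log2 fold change -0.08, SE 0.220).

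Among the subunits found in only some of the complexes, KDM6A, the lysine 27 demethylase that joins KMT2C and KMT2D, had the highest fold change. It stood at 37.3 and 41.9 CPM in the P5CS IP, against 20.3 and 22.2 CPM in the input (log2 fold change 0.90, SE 0.130, adjusted p = 0.000164, edgeR). HCFC1, a host cell factor bound by several of the complexes, stood at 1014 and 940.4 CPM in the IP, against 609.8 and 546.3 CPM in the input (0.76, SE 0.0803, adjusted p = 1.58e-05, edgeR). CXXC1, which brings the SETD1 enzymes to unmethylated CpG DNA, stood at 82.2 and 81.7 CPM in the IP, against 60.1 and 60.7 CPM in the input (0.44, SE 0.0916, adjusted p = 0.00207, edgeR). BOD1 was lower, with 14.6 and 17.1 CPM in the IP against 27.7 and 30.7 CPM in the input (-0.88, SE 0.150, adjusted p = 0.000501, edgeR). None of these 4 changed its call in any of the 11 alternative settings.

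Other SET-domain methyltransferase genes were mixed as well. Of 28 listed, 25 were tested, and 10 of these passed as higher, 4 passed as lower and 11 were not called (edgeR), against 25.4% higher and 25.6% lower among all genes. The median of their log2 fold changes was -0.01 and that of their model lengths 4.64 kb. SETD5 stood at 344.7 and 340.5 CPM in the P5CS IP, against 121.8 and 124.5 CPM in the input (log2 fold change 1.48, SE 0.0775, adjusted p = 7.98e-08, edgeR). EHMT1, a lysine 9 methyltransferase, stood at 334.8 and 377.8 CPM in the IP, against 132.8 and 133.8 CPM in the input (1.42, SE 0.0859, adjusted p = 2.29e-07, edgeR). NSD2, a paralogue of NSD1, stood at 1142 and 1265 CPM in the IP, against 479.5 and 474.2 CPM in the input (1.34, SE 0.0762, adjusted p = 1.46e-07, edgeR). These 3 were the highest called genes of that list, and in each the groups were far apart. The remaining NSD paralogue, NSD3, singled out after its values were seen, was higher at 0.62 (SE 0.0974, adjusted p = 0.000306, edgeR), but not once the length trend was taken out (0.10).

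Of the 4 called lower in the same list, the 3 lowest had models of 1.75 to 3.07 kb, but the remaining one, SETD7, singled out after its values were seen, has a model of 13.81 kb. SETD7 was at -0.32 (SE 0.115, adjusted p = 0.0385, edgeR), and its call ended in 7 of the 11 alternative settings, each library left out among them. With the length trend taken out SETD7 was still called lower, at -0.87 (SE 0.119). SMYD2, which methylates p53 among other proteins, stood at 9.04 and 9.55 CPM in the P5CS IP, against 18.9 and 17.3 CPM in the input (log2 fold change -0.96, SE 0.171, adjusted p = 0.000725, edgeR). EZH2, the lysine 27 methyltransferase of Polycomb, stood at 26.3 and 20.9 CPM in the IP, against 35.4 and 36.4 CPM in the input (-0.60, SE 0.142, adjusted p = 0.00424, edgeR). Its call ended with total-count scaling (-0.34, adjusted p = 0.0737, edgeR). SMYD5 was at -0.50 (SE 0.148, adjusted p = 0.0151, edgeR), a call that ended without P5CS IP 2 (-0.39, 0.0751), without input 1 (-0.35, 0.156) and with total-count scaling (-0.24, 0.225).

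The demethylases that erase the lysine 4 and lysine 36 marks went mostly the same way as the methyltransferases. Of 10 tested, 9 passed as higher, 0 passed as lower and 1 was not called (edgeR), against 25.4% of all genes higher. The median of their log2 fold changes was 0.83 and that of their model lengths 7.38 kb. Since this list was drawn up with earlier results of these data known, its counts only describe it. KDM2A, a lysine 36 demethylase, stood at 136.1 and 139.8 CPM in the P5CS IP, against 56.8 and 56.4 CPM in the input (log2 fold change 1.28, SE 0.0880, adjusted p = 5.9e-07, edgeR). KDM5A, a lysine 4 demethylase, stood at 172.4 and 212.2 CPM in the IP, against 87.1 and 84.7 CPM in the input (1.16, SE 0.106, adjusted p = 4.84e-06, edgeR). KDM2B stood at 83.7 and 87.7 CPM in the IP, against 42.1 and 36.9 CPM in the input (1.12, SE 0.105, adjusted p = 6.12e-06, edgeR). The gene that did not pass was KDM1A, named after its value was seen, at 0.15 (SE 0.123). With the length trend removed 6 of the 10 were called higher and the median was 0.50. With replicate number also fitted as a block, 8 were called higher and the median was 0.51. Of all 17304 tested genes, 3854 and 3985 were higher in these 2 settings.

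**Figure D4:**
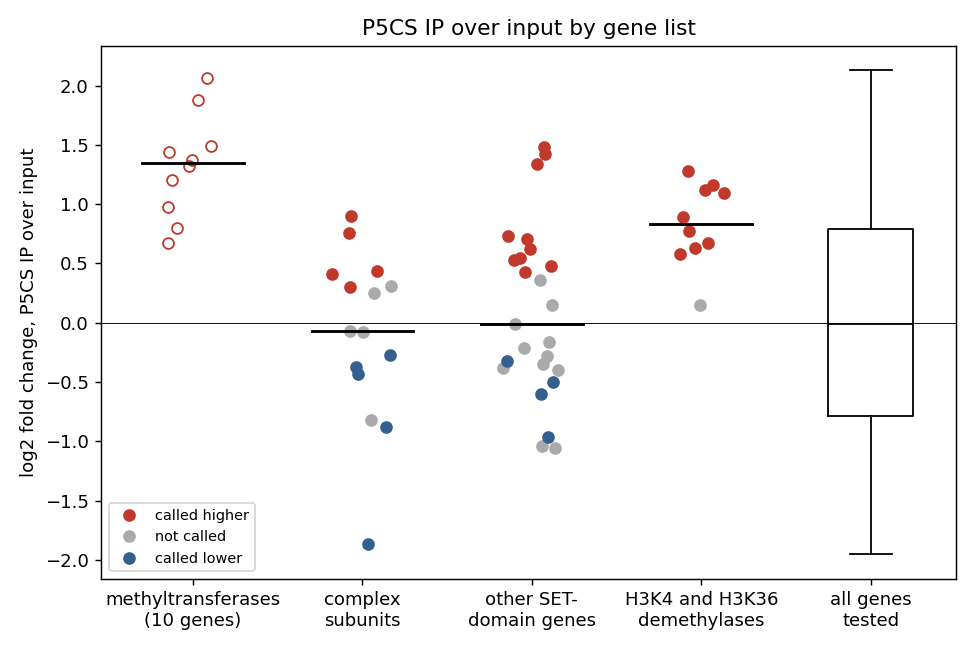
Log2 fold change of P5CS IP over input for the 10 methyltransferase genes (open circles, chosen on this contrast), the 15 complex subunits, the 25 tested other SET-domain genes and the 10 demethylases, coloured by the edgeR call, with black lines at the medians (1.35, -0.07, -0.01 and 0.83), and for all genes tested as a box (quartiles and median, whiskers at the 5th and 95th percentiles). Subunits and other SET-domain genes lie on both sides of 0, and all 10 demethylases lie above it. These lists too were drawn up with earlier results of these data known.

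The genes whose profile over the 4 libraries was most like the mean profile of the 10 were TBC1D4, SPRY2 and TENT5A, by Euclidean distance of log2 CPM centred on each gene's mean (0.014, 0.016 and 0.017). With 4 libraries in 2 groups this likeness is chiefly one of the size of the IP over input difference, which was 1.32 (SE 0.0881), 1.31 (SE 0.0819) and 1.33 (SE 0.162) on the log2 scale. TBC1D4 stood at 142.9 and 145.5 CPM in the P5CS IP, against 56.6 and 58.9 CPM in the input. SPRY2 and TENT5A have models of 3.21 and 5.73 kb, both shorter than that of any of the 10, while that of TBC1D4 is 7.75 kb.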

How the data were processed

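A single table held the gene values of 2 P5CS IP and 2 input libraries. The authors deposited whole-number counts per gene. Beside them stand FPKM values, which, per the file headers, are scaled by gene length and library total. The deposited table also holds the authors' comparison, with p-values, a score for the test, a mean signal, and log2 fold changes with standard errors, per the file headers. Build hg38 and the tools STAR 2.7.10a, fastp 0.23.2, DESeq2 and featureCounts are listed in the submitters' processing notes. For annotation and strand setting, the sources used here give nothing. IP columns were matched to samples by replicate number and the absence of the word input. Of counts from 1 to 30, 85.76 to 86.4% were even, so each read pair appears to count as 2.

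One repeated row was dropped, leaving 21372 genes. Gene model length came from count over FPKM. The counts were fitted with glmQLFit and glmQLFTest of edgeR 4.0.16 under R 4.3.3, after TMM scaling and filterByExpr, which kept 17304 genes, with Benjamini-Hochberg adjustment over all of them and a threshold of 0.05. TMM factors were 1.102 and 1.091 (IP) and 0.919 and 0.905 (input), there were 2 residual degrees of freedom, and the common biological coefficient of variation came to 0.201. SE is the log2 fold change over the root of the F statistic. A floor of 3 counts is 0.0864 and 0.0953 CPM (IP) and 0.0733 and 0.0647 CPM (input). Alternatives were DESeq2 (1.42.0) size factors and test, total counts, no filter, a replicate block, a loess length trend removed (span 0.3) and each library left out. Gene spans are from RefSeq GRCh38.p14.

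Members and lists were chosen with earlier results of these data known. By rule the text names all 10 members, the 4 core subunits, the 3 highest and 3 lowest called genes of each list, the 3 genes of most similar profile and the markers. SETD7, NSD3 and KDM1A were named in addition, after their values were seen.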

Additional observations from a re-analysis of the deposited data

How the results depend on the processing

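The 110 values of the 10 methyltransferase genes under the 11 alternative settings were above 0, a direction that their choice on this contrast had fixed. The lowest was that of KMT2A once the length trend was taken out (0.07, with or without the replicate block). The trend made up 0.60 of its log2 fold change of 0.67. Its call was lost in both of these settings, which left 9 members on the higher side of the call. Of all 17304 tested genes, 3854 were on that side without the block and 3985 with it. As the list was chosen on this contrast, the count of members only describes it. Why length went with the fold change was not tested. Of 220 values of the 20 other genes named by rule, markers aside, 219 kept their sign. The exception was RBBP5, not called in either case, at 0.19 with total counts alone against -0.08 with TMM. Among these 220 values the call was kept in 208 and lost in 12. SETD7, NSD3 and KDM1A, named after their values were seen, are not among them. Their calls changed in 7, 2 and 2 of the 11 settings. With total counts alone the members ran from 0.94 to 2.32, while the median of all genes was 0.25, against -0.01 with TMM, and the calls over all genes split into 5604 higher and 3223 lower, against 4400 and 4432 with TMM. With each library left out, where the group with 1 library takes its spread from the other, 7838 to 8376 genes were called, 10 members were higher throughout, and 6 to 9 complex subunits, 10 to 13 other SET-domain genes and 8 to 10 demethylases were called. Labels give both groups replicate numbers 1 and 2. The deviations of same-numbered libraries correlated at 0 over all genes and at 0.223 over genes above a mean of 5 log2 CPM, and nothing in the labels makes a number a shared batch, so the fit had no block. With the replicate block 8936 of the 17304 tested genes were called, 4449 of them as higher. Called in that setting were 10 members, all higher, 11 complex subunits, 15 other SET-domain genes and 9 demethylases. The lowest count of a member in a library was 867.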
